A study of Mus musculus with 74 samples.

Results

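The comparison described here is between nerve macrophages of mice whose bone marrow came from different donors, taken at end stage of disease. It covers 6 of the 74 RNA libraries of the series, chosen by their labels alone. Every mouse was labelled as a female on C57BL/6J that carried the mutant human SOD1-G93A transgene, which gives an inherited form of amyotrophic lateral sclerosis (ALS). Every mouse also received bone marrow at disease onset. In 3 mice the donor carried the same SOD1-G93A transgene (G93A marrow, the baseline group). In the other 3 the donor carried a wildtype human SOD1 transgene (WT marrow), so both donor types expressed human SOD1 and neither group is free of the graft procedure. Each library came from the left and right sciatic nerves of 1 mouse. The tissue was kept cold without enzyme digestion, myelin was removed on a Percoll gradient, and cells were pulled out with magnetic beads against CD11b. The conditioning before the graft, the share of cells that came from the donor, the sex of the donors and the ages of these mice are not known from the labels. Libraries are named by marrow and replicate number, which is taken as a name only. Grafted nerve macrophages in early symptoms (3 mice with G93A marrow, 2 with WT marrow) and grafted spinal cord microglia at end stage (3 and 3) are used where a difference at end stage is compared with another stage or tissue.

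Macrophages of peripheral nerve sit along the axons of motor neurons, clear myelin and axon debris when fibres degenerate, and are renewed in part by monocytes from the bone marrow. A marrow graft therefore changes the genotype of incoming cells while Schwann cells, axons and muscle stay those of the host. CD11b, the product of Itgam, is carried by macrophages and also by monocytes, neutrophils and NK cells, so beads against it collect all of them. Mitochondria keep a small genome of their own that encodes core proteins of the respiratory chain, and most other parts of that chain come from nuclear genes.

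The values are FPKM, fragments scaled by transcript length and by the number of mapped fragments, and the read depth behind them is unknown. FPKM summed to 670943, 615421 and 643258 in the G93A marrow libraries and to 713408, 729098 and 755253 in the WT marrow libraries. The number of gene symbols above 1 FPKM was 9773, 9830 and 9410 with G93A marrow and 7792, 9497 and 8983 with WT marrow. Across genes, the log2 values of the 3 G93A marrow libraries correlated at 0.889 to 0.918. Those of WT marrow replicate 1 correlated at 0.70 to 0.73 with the other 5 libraries, 0.711 of it with WT marrow replicate 3. WT marrow replicate 2 correlated at 0.871 to 0.889 with the G93A marrow libraries, and at 0.730 and 0.820 with WT marrow replicates 1 and 3. WT marrow replicate 3 correlated at 0.761 to 0.778 with the G93A marrow libraries.

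The library labelled WT marrow replicate 2 goes against its label. It held 47.16 FPKM of Eif2s3y, 14.07 of Ddx3y, 3.71 of Kdm5d and 1.93 of Uty, which all lie on the Y chromosome, and 0 of Tsix. In each of the other 22 grafted libraries these Y-linked genes were at 0, apart from 0.01 FPKM of Eif2s3y in 2 of them, and Tsix was at 0.65 to 20.16 FPKM. All mice are labelled female. Donor cells of the other sex and a sample of another mouse cannot be told apart here. Results below include this library unless stated, and for some genes and counts the value without it is given as well.

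WT marrow replicate 1 stands apart in another way. Of about 3190 genes with a median of at least 20 FPKM in the other 10 grafted nerve libraries, 3.63% were under 0.5 FPKM in WT marrow replicate 1, 10 (0.313%) in replicate 3 and 0 in replicate 2. The 3 G93A marrow libraries had 4, 1 and 4 such genes. In early symptoms there were 11, 0 and 4 with G93A marrow and 21 and 0 with WT marrow, so the count of replicate 3 lay within the range of the early libraries and that of replicate 1 did not. The part of these missing values in the results was not tested.

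**Figure D1:**
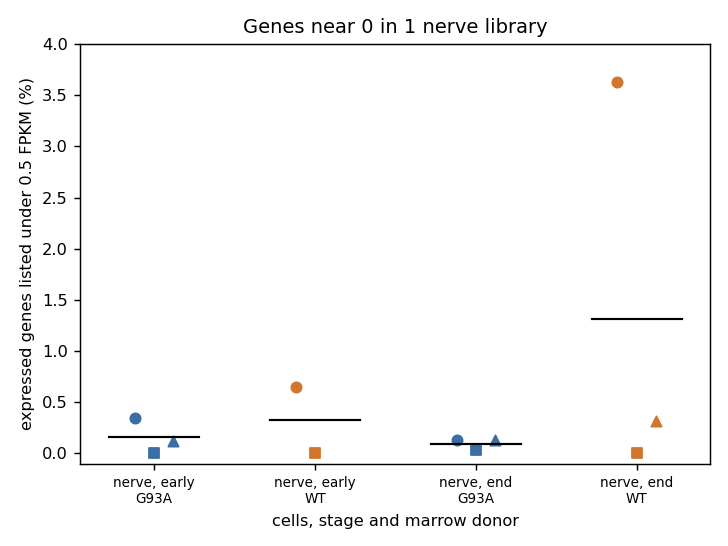
Percent of expressed genes (median at least 20 FPKM in the other 10 grafted nerve libraries) that are listed under 0.5 FPKM in each nerve library. Symbols are single mice (blue G93A marrow, orange WT marrow) and lines are group means. WT marrow end-stage replicate 1 stands at 3.63%.

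The labelled cell type was checked against marker genes. The macrophage genes Csf1r, the receptor for the growth factor CSF1, and Adgre1 (F4/80) were detected in all 6 libraries, at 78.07 to 298.93 and 21.96 to 111.03 FPKM. Neutrophil genes were far higher: S100a8, a calcium-binding protein of neutrophil and monocyte cytoplasm, was at 28891 to 53337 FPKM, and 16 neutrophil markers together took 25.5%, 20.1% and 22.5% of FPKM with G93A marrow and 15.7%, 22.6% and 18.2% with WT marrow. The group ranges of that share overlap, and it did not differ beyond the spread between mice (exact permutation test, two-sided, p = 0.3). Hemoglobin genes took 1.5% to 3.63% with G93A marrow and 3.59% to 5.33% with WT marrow. In such mixed samples, fewer cells of a type and less RNA per cell cannot be told apart.

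The first question was which genes differed between nerve macrophages of mice with WT and with G93A marrow. The largest higher values with WT marrow were those of Retnla and Pf4, both expressed by macrophages, and of glial and neural genes such as Mbp, S100b and Gpm6b. The largest lower values were those of signalling and cytoskeleton genes such as Rara, Pik3cd, Hip1r and Mast3, and of the red cell genes Rhd and Slc4a1. None of these passed the test with all 6 libraries. Of 10299 genes tested with limma on log2(FPKM + 1), 0 (0%) reached the threshold for a call, a Benjamini-Hochberg adjusted p under 0.05, and the smallest adjusted p was 0.151. At an unadjusted p under 0.05, 501 genes (4.86%) were higher and 1087 (10.6%) lower with WT marrow. In 930 genes (9.03%) all 3 WT marrow values lay above all 3 G93A marrow values, and in 1437 (14%) below them. Counts without overlap in the lists below stand beside these shares. The median log2 difference, WT minus G93A marrow, was -0.15 over all genes tested.

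Without WT marrow replicate 2, 278 of 10319 genes (2.69%) were called, 35 higher (0.339%) and 243 lower (2.35%), again with limma. Leaving out a library leaves 2 WT marrow libraries at end stage, replicates 1 and 3, whose spread is taken from the other nerve groups as well. Of the 243 lower genes, 195 had the value of replicate 2 between those of replicates 1 and 3 and the lowest G93A marrow library. The 243 were called on low values of replicates 1 and 3, so this count is in part set by that choice. No share over all genes stands beside it. In 56 of the 243 (23% beside 9.7% of all genes tested) both replicates 1 and 3 were under 1 FPKM. A transcript over 4000 bases was found for 98 of the 236 with a known length (41.5% beside 30.8% of the genes tested with one).

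Retnla encodes a secreted resistin-like protein and is a marker of alternatively activated macrophages. It lies at 16:48842551-48844461 (mm10). Its values were 4.48, 2.60 and 14.29 FPKM with G93A marrow and 7279, 435 and 3336 FPKM with WT marrow. Every WT marrow library was above every G93A marrow library, with a range of values among the WT marrow libraries that was wide itself. The log2 difference was 8.36 ± 2.60 (SE, n = 3 and 3; limma adjusted p = 0.180). It was 9.52 without WT marrow replicate 2, with an adjusted p of 0.11, so Retnla was not called there either. Pf4, a chemokine of platelets and of some resident macrophages, was at 0.08, 8.69 and 48.65 FPKM with G93A marrow and 100.19, 113.04 and 357.22 FPKM with WT marrow. The groups did not overlap (log2 difference 4.32 ± 1.38, SE; limma adjusted p = 0.190). Ccl8, a chemokine of tissue macrophages, was at 0.03, 1.16 and 0.58 FPKM against 6.92, 3.05 and 171.38 FPKM, and here WT marrow replicate 3 alone carried most of the mean.

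In the list of resident and alternatively activated macrophage genes, these 3 of the 16 tested members lay above with no overlap, where 9.03% of all genes did. Below lay 2, where 14% of all genes did, a share about that of the background. The median log2 difference was -0.27, beside -0.15 for all genes. The 2 lower genes were Clec10a, a lectin, at 21.82, 6.23 and 7.46 against 0.10, 5.49 and 5.45 FPKM, and Il4ra, the receptor chain for interleukin 4, at 53.50, 54.47 and 147.93 against 40.90, 44.19 and 13.96 FPKM. F13a1 and Chil3, further genes of this list, had overlapping groups. The sign of the list's median changed under 7 of 24 other settings.

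**Figure D2:**
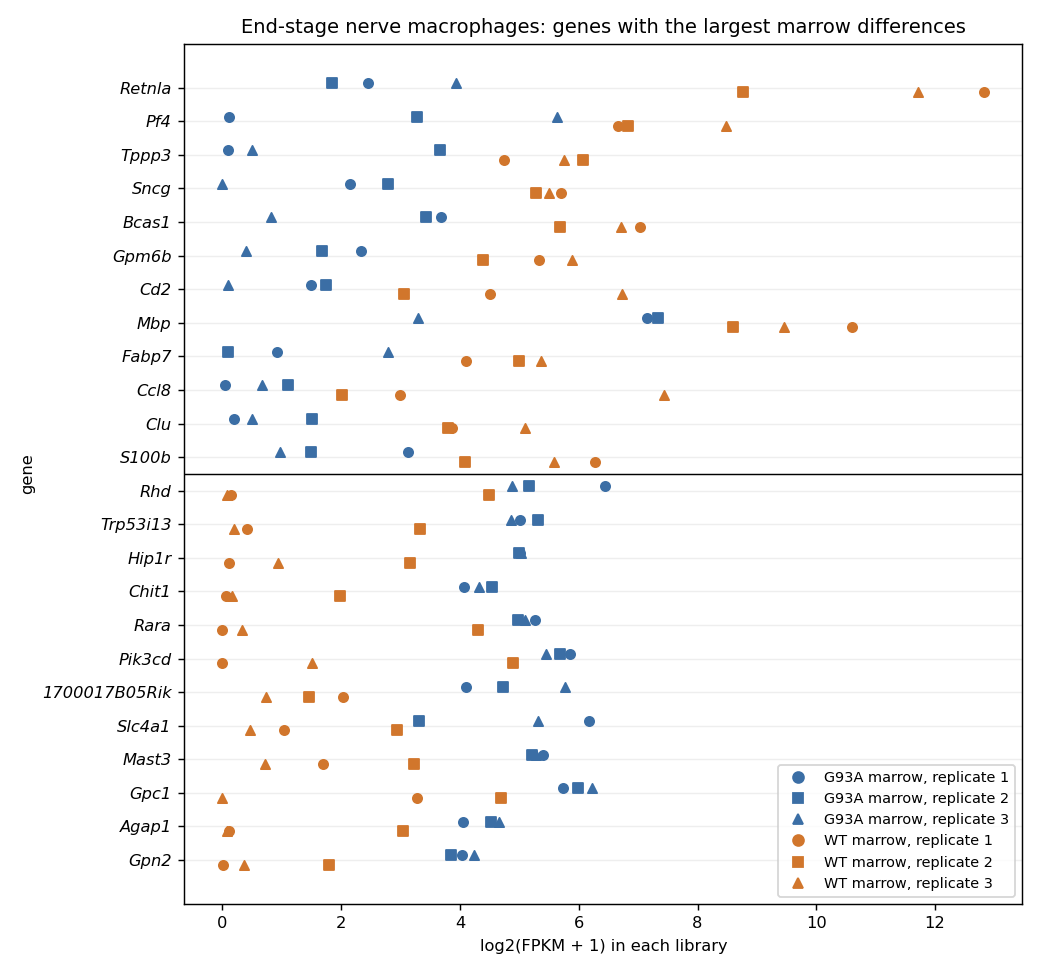
Log2(FPKM + 1) of the 12 genes with the largest higher and the 12 with the largest lower values with WT marrow, in each end-stage nerve library. Each symbol is 1 mouse, blue for G93A and orange for WT marrow, with circle, square and triangle for replicates 1, 2 and 3. WT marrow replicate 2 (orange square) lies between the other WT marrow values and the G93A marrow values for most of the lower genes, such as Rara and Hip1r.

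Most tested genes of Schwann cells, which wrap the axons of the nerve, had higher values with WT marrow. Mbp, a protein of compact myelin, was at 140.93, 160.10 and 8.81 FPKM with G93A marrow and 1553, 385 and 701 FPKM with WT marrow (log2 difference 3.62 ± 1.30, SE; limma adjusted p = 0.234). S100b, a calcium-binding protein of glia, was at 7.68, 1.81 and 0.96 against 76.15, 15.93 and 46.85 FPKM. The difference for S100b was 3.45 ± 0.88 (SE) with all libraries (limma adjusted p = 0.151), and S100b was called without WT marrow replicate 2, at 4.07 and an adjusted p of 0.0496. Pmp22, Prx and Mal were likewise higher in all 3 WT marrow libraries. Together 6 of the 10 tested Schwann cell markers lay above with no overlap and 0 below, beside 9.03% and 14% of all genes. Their median was 1.57, beside -0.15 for all genes. Of the 10, 8 had a positive and 2 a negative difference, and 1 was lower at an unadjusted limma p under 0.05. The summed FPKM of the list was 210, 237 and 23.0 with G93A marrow and 1819, 488 and 878 with WT marrow. The group ranges of this sum do not overlap, and Mbp alone, given above, made up most of it except in G93A marrow replicate 3.

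Other Schwann cell markers were too low to be tested, with a mean under 1 FPKM. Sox10, a transcription factor of Schwann cells, and Ngfr, a receptor of their non-myelinating and repair forms, were at most 0.82 FPKM in any of the 6 libraries. Further genes among the 12 with the largest higher values were picked by size and form no list. Gpm6b, a membrane glycoprotein of glia and neurons, was at 4.05, 2.19 and 0.31 against 39.16, 20.01 and 58.16 FPKM. Clu, a secreted chaperone, was at 0.14, 1.86 and 0.41 against 13.59, 12.93 and 33.36 FPKM and was called without WT marrow replicate 2, at 3.75 with a limma adjusted p of 0.04995. Fabp7, Bcas1, Sncg and Tppp3 had log2 differences of 3.55, 3.83, 3.85 and 4.10 and no call with all 6 libraries. Cd2, an adhesion receptor of T and NK cells, was at 1.81, 2.35 and 0.07 against 21.68, 7.37 and 104.63 FPKM.

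Markers of other cells of the nerve and its surroundings moved in part with the marrow groups. Of 8 fibroblast and perineurium markers, 3 were higher with no overlap (Apod, Dcn and Col1a2) and 1 lower (Gsn), beside 9.03% and 14% of all genes. Dcn, a matrix proteoglycan, was at 11.82, 10.21 and 0.93 against 43.49, 39.93 and 69.42 FPKM. The 8 muscle markers had a median of 1.59 with summed values of 115.58, 18.06 and 86.39 against 662.20, 114.14 and 87.64 FPKM, and 0 of them separated the groups. Tubb3, a tubulin of neurons, was at 0, 1.17 and 0.02 against 5.30, 31.13 and 11.79 FPKM, the highest value being that of WT marrow replicate 2. In this library 7 of the 9 neuron markers were above 1 FPKM, and in the other 5 libraries 0 to 2 were. Calca, a neuropeptide gene of sensory neurons, was at 13.43 FPKM there and at most 0.01 in the other 5, and Stmn2, a tubulin regulator of neurons, was at 10.39 and at most 0.08. The neurofilament genes Nefl and Nefm were at 11.94 and 4.57 in replicate 2 and at most 0.06 elsewhere, while Snap25, of synaptic vesicle fusion, was at 6.38 in replicate 1 and 0 in replicate 2. The part of these other cells in the results was not tested.

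Of 16 macrophage identity genes tested, 13 had a positive and 3 a negative difference, and none was called with all 6 libraries. The median was 0.63, beside -0.15 for all genes, and it turned to -0.14 without WT marrow replicates 1 and 3. In 0 of them did the WT marrow values lie above with no overlap, and in 2, Itgam and Spi1, below. Of all genes, 9.03% lay above and 14% below. Itgam, the gene of the CD11b chain that the beads bind, lies at 7:128062640-128128162 and was at 323.16, 329.64 and 263.95 FPKM with G93A marrow and 51.23, 184.85 and 66.55 FPKM with WT marrow. All 3 WT marrow values were lower (log2 difference -1.81 ± 0.43, SE; limma adjusted p = 0.151). Without WT marrow replicate 2, Itgam was called lower, at -2.36 with an adjusted p of 0.0135. Spi1, the transcription factor PU.1 of myeloid cells, was at 526.98, 521.13 and 686.09 against 296.61, 405.70 and 351.12 FPKM. Csf1r had overlapping groups (97.73, 298.93 and 101.70 against 214.58, 78.07 and 97.57 FPKM), as did Adgre1. G93A marrow replicate 2 had the highest summed level of this list, at 13799 FPKM beside 4319 and 4694 in the other G93A marrow libraries and 9755, 5008 and 7957 with WT marrow. Without that library the list's median was 1.32. It was also highest in the 10 microglia markers, whose summed FPKM was 54.49, 1460 and 69.02 with G93A marrow. With WT marrow that sum was 532.76, 140.87 and 522.67 FPKM. The part of microglia-like RNA in the results was not tested.

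Antigen presentation genes are given by class, and the difference between the classes was not tested. MHC class II presents peptides from outside the cell, and Cd74 is its chaperone. Of 10 class II genes, 8 had a positive difference, with a median of 1.58, but H2-DMb1 alone separated the groups, at 38.92, 45.36 and 30.67 against 194.21, 57.39 and 208.63 FPKM. None of the 10 was called with or without WT marrow replicate 2, and the median was 0.24 when WT marrow was represented by replicate 2 alone. Of 12 class I genes, 5 had a positive and 7 a negative difference, with a median of -0.12, close to that of all genes. Of these 0 were higher and 3 lower with no overlap, beside 9.03% and 14% of all genes. Tap2, a subunit of the pump that carries peptides to class I molecules, was at 93.77, 117.29 and 64.47 against 26.09, 43.37 and 22.41 FPKM, with a log2 difference of -1.57 ± 0.36 (SE; limma adjusted p = 0.151). It was called lower without WT marrow replicate 2, at -1.84 with an adjusted p of 0.0327.

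No member of the NADPH oxidase list or of the complement and Fc receptor list was called. All 8 tested genes of the NADPH oxidase list, which makes superoxide, had a negative difference, with a median of -0.63, and Rac2 and Hvcn1 separated the groups. Rac2, the GTPase of the oxidase, was at 2575, 2263 and 1962 FPKM against 440, 1501 and 1158 FPKM. C3, the central complement protein, was at 163.98, 137.61 and 127.23 against 21.16, 44.77 and 24.27 FPKM (log2 difference -2.28 ± 0.56, SE; limma adjusted p = 0.151). The list of 17 complement and Fc receptor genes as a whole had 13 positive differences and a median of 0.47, with 1 higher and 2 lower without overlap. Those shares are under the 9.03% and 14% of all genes. Fcgr2b, the inhibitory Fc receptor, was higher in all 3 WT marrow libraries, but in replicate 2 by little, at 83.89 against 83.47 FPKM in the highest G93A marrow library. Mmp9, a matrix protease stored by neutrophils, was at 2148, 2079 and 1725 against 337, 1262 and 896 FPKM.

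Neutrophils make superoxide and store proteases too, and their markers are given beside these genes. Of 16 tested, 7 were lower with no overlap (Camp, Cd177, Csf3r, Lcn2, Ltf, Ngp and Prtn3), 1 higher (Stfa2) and 0 called, with a median of -0.67. Of all genes, 14% were lower and 9.03% higher with no overlap. Csf3r, the G-CSF receptor, was at 698.39, 599.77 and 596.31 against 120.74, 385.83 and 197.21 FPKM. S100a8 overlapped, at 42063, 28891 and 34623 against 36592, 53337 and 42785 FPKM. The part of neutrophils in the lower values of Rac2, Mmp9 and C3 was not tested.

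Of 18 inflammatory genes, 13 had a negative difference and the median was -0.70, beside -0.15 for all genes, with 0 called. In 2, Clec4e and Nfkbiz, the WT marrow values lay below with no overlap, a share under the 14% of all genes, and in 0 above. The median turned to 0.13 without G93A marrow replicate 2. Of 21 interferon response genes, Rtp4 and Xaf1 lay above and Cxcl10 below with no overlap, beside 9.03% and 14% of all genes. The median of this list was -0.06. Rtp4, a chaperone of membrane receptors, was at 20.38, 15.58 and 9.10 against 52.67, 37.88 and 67.20 FPKM, and was called higher without WT marrow replicate 2, at 1.98 with a limma adjusted p of 0.045.

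Of 22 cell cycle genes, 20 had a negative difference and 0 were called with all 6 libraries. In 8 the WT marrow values lay below with no overlap and in 0 above, beside 14% and 9.03% of all genes. The median was -0.81, and -0.16 when WT marrow was represented by replicate 2 alone. Mcm5, a subunit of the helicase that opens DNA for copying, was at 75.02, 54.14 and 61.38 against 7.80, 21.94 and 15.96 FPKM (log2 difference -2.08 ± 0.49, SE; limma adjusted p = 0.151). Without WT marrow replicate 2 it was called, at -2.39 with an adjusted p of 0.046. Mcm2, of the same helicase, was at 35.51, 26 and 25.44 against 0.08, 18.95 and 11.88 FPKM. Its lowest value is one of the near-zero values of WT marrow replicate 1.

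Tgfb1, a cytokine that limits inflammation and drives matrix production, was at 21.92, 18.47 and 16.14 against 5.85, 6.16 and 1.21 FPKM, with a log2 difference of -2.05 ± 0.51 (SE; limma adjusted p = 0.151). It was called lower without WT marrow replicate 2, at -2.34 with an adjusted p of 0.0496. It was the only one of 9 trophic factors whose groups did not overlap, a share under the 14% of all genes that were lower. In the axon guidance and matrix list, 4 of 15 were lower with no overlap and 0 higher, beside 14% and 9.03% of all genes.

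Lipid handling genes were mixed. Pltp, which transfers phospholipids between lipoproteins, was at 10.32, 8.45 and 22.34 against 555.28, 31.40 and 145.05 FPKM. Cd36, a scavenger receptor for oxidised lipid, was at 6.42, 5.74 and 14.33 against 112.24, 18.46 and 52.98 FPKM. Both were higher in all 3 WT marrow libraries, and Plin2, which coats lipid droplets, was lower. Of 15 cholesterol synthesis genes, 0 separated the groups. Of 20 lipid-associated macrophage genes, Cd36 alone did. In the lysosome list, Ctsc and Lamp2 were higher, Neu1 was lower, and the other 21 overlapped. Both shares of the lysosome list were under the 9.03% higher and 14% lower of all genes.

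**Figure D3:**
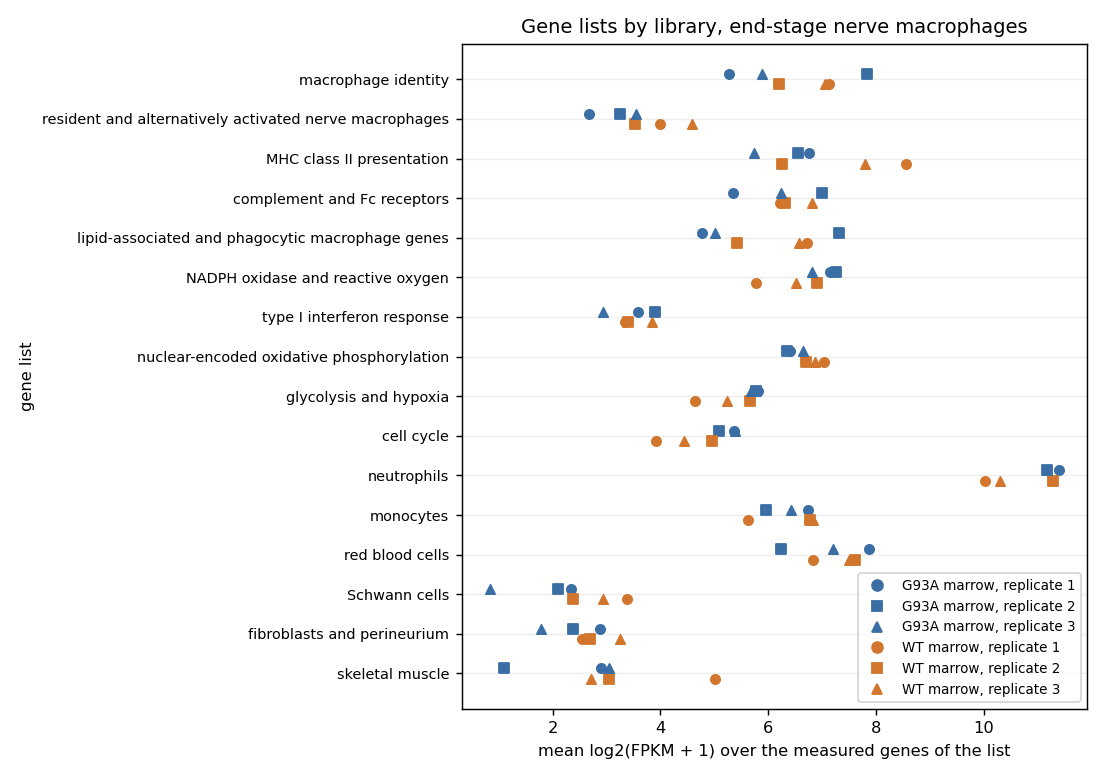
Mean log2(FPKM + 1) over the measured genes of each list, in each end-stage nerve library, with blue for G93A marrow, orange for WT marrow and circle, square and triangle for replicates 1, 2 and 3. The Schwann cell mean is 0.84 to 2.34 with G93A marrow and 2.38 to 3.38 with WT marrow, while the macrophage identity means of the groups overlap.

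The mouse gene Sod1, at 16:90220742-90226331, encodes the enzyme whose mutant human form drives the disease. It was at 14.28, 9.26 and 17.14 FPKM with G93A marrow and 64.52, 21.59 and 27.19 FPKM with WT marrow. All 3 WT marrow values were higher (log2 difference 1.29 ± 0.53, SE; limma adjusted p = 0.277). Reads of the human transgene were not separated from mouse Sod1 here. Prdx1, another antioxidant enzyme, also separated the groups upward, and the other 16 members of the antioxidant list overlapped. Of all genes, 9.03% were higher with no overlap.

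Lower genes outside the lists were led by genes that were near zero in WT marrow replicates 1 and 3. Rara, a retinoic acid receptor, was at 37.22, 30.40 and 33.35 FPKM with G93A marrow and 0, 18.84 and 0.25 FPKM with WT marrow. The 3 G93A marrow values were close together, and replicate 2 lay between them and the other WT marrow values (log2 difference -3.57 ± 0.89, SE; limma adjusted p = 0.151). Rara had the smallest adjusted p without replicate 2, at 0.0049 and a log2 difference of -4.95. Pik3cd, a lipid kinase of leukocytes, had the same shape, at 56.75, 50.46 and 42.86 against 0, 28.61 and 1.86 FPKM. Hip1r, which links clathrin coats to actin, was at 31.33, 30.89 and 31.74 against 0.08, 7.98 and 0.92 FPKM. Mast3, a kinase, was lower in replicate 2 as well, at 41.29, 35.97 and 38.06 against 2.24, 8.34 and 0.65 FPKM (-3.42 ± 0.58, SE; limma adjusted p = 0.151). These 4 genes were called without replicate 2.

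Chit1, a chitinase of macrophages and neutrophils, was at 15.69, 22.23 and 19 against 0.04, 2.95 and 0.12 FPKM and was not called in either setting. Slc4a1, the anion exchanger of red cells, was at 71.55, 8.90 and 38.70 against 1.05, 6.71 and 0.38 FPKM, and Rhd, a blood group protein, at 85.77, 34.96 and 28.43 against 0.11, 21.40 and 0.05 FPKM. Other red cell genes went the other way. Hba-a2 was at 3866, 1465 and 2872 against 4480, 7500 and 8463 FPKM, and Hba-a1 overlapped.

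The second question was the make-up of each library. The mitochondrial share is the percent of all FPKM in the 13 features on the mitochondrial chromosome, which carry no gene symbol in the table. It was 0.960%, 0.326% and 0.350% with G93A marrow and 8.84%, 4.94% and 2.84% with WT marrow. All 3 WT marrow libraries, replicate 2 included, lay above all 3 G93A marrow libraries. The means were 0.545% ± 0.359 and 5.54% ± 3.05 (SD, n = 3 each), a difference of 5.00 percentage points (exact permutation test, two-sided, p = 0.1, the smallest p that 3 against 3 can give). Leaving out 1 library at a time gave differences of 3.35 to 6.35 points. Of the 13 features, 12 were higher in every WT marrow library and the feature of mt-Nd3 overlapped. The feature that spans mt-Co1, a catalytic subunit of cytochrome c oxidase, at M:5325-6941, was at 2971, 766 and 1060 FPKM against 25075, 14444 and 8549 FPKM.

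Nuclear genes of the same respiratory chain are given beside these, with 0 called. Of 23 in the list, 10 were higher and 2 lower with no overlap, beside 9.03% and 14% of all genes. The list's median was 0.49. Cox6c, a small subunit of cytochrome c oxidase, was at 141.28, 120.18 and 162.66 against 257.45, 231.17 and 323.62 FPKM (log2 difference 0.93 ± 0.30, SE; limma adjusted p = 0.191). The 2 lower genes were Atp5b and Ndufv1. The margin was small for Atp5b, which was at 342.20 in the lowest G93A marrow library and 338.82 in the highest WT marrow library. The median turned to -0.21 when each library's trend with transcript length and GC content was removed. Of 19 glycolysis genes, 0 were higher and 3 lower with no overlap, Pkm, Gapdh and Gpi1. Gpi1, the second enzyme of glycolysis, was at 857.52, 726.79 and 947.15 against 360.50, 459.43 and 309.59 FPKM.

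The share of FPKM in all features without a symbol was 12.9%, 10.3% and 12.0% with G93A marrow and 23.3%, 18.5% and 16.7% with WT marrow. The means were 11.7% ± 1.30 and 19.5% ± 3.44 (SD, n = 3 each), a difference of 7.77 points with no overlap (exact permutation test, two-sided, p = 0.1, the smallest possible). With the mitochondrial features taken out, the shares were 11.2% ± 1.04 and 13.96% ± 0.496 (SD), so most but not all of the gap lay in the mitochondrial features. Some of the rest resembles them: the feature at 1:24613188-24614814, annotated as Gm28437 and Gm10925 inside a nuclear copy of mitochondrial DNA, was at 1251, 313 and 456 against 9839, 6394 and 4318 FPKM. Reads of such a copy and of the mitochondrial genome cannot be told apart in these values.

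Transcript length moved with the same groups, and so did GC content. Across genes, the marrow difference in end-stage nerve correlated with log2 length at -0.24 and with GC content at -0.32 (Pearson). In early nerve these correlations were 0.007 and -0.05. In end-stage microglia they were -0.06 and -0.27, so the trend with GC content was not particular to nerve. Among 574 genes whose longest coding transcript is under 1000 bases, the median difference was 0.50, with 163 higher and 21 lower without overlap. Among 2932 genes over 4000 bases it was -0.40, with 150 higher and 531 lower. Over all genes tested, 9.03% were higher and 14% lower without overlap. The mean log2 level of the short genes minus that of the long genes was 1.5, 1.45 and 1.40 in the G93A marrow libraries and 2.49, 1.96 and 2.73 in the WT marrow libraries. Groups named after the values were seen, and rich in short transcripts, shared this. Of 75 cytosolic ribosomal protein genes, 45 were higher with no overlap and 2 lower, with a median of 0.82 that came to 0.17 once length and GC trends were removed. Of 75 mitochondrial ribosomal protein genes, 24 were higher and 1 lower, with medians of 0.42 and 0.03. The part of RNA quality in these differences was not tested.

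**Figure D4:**
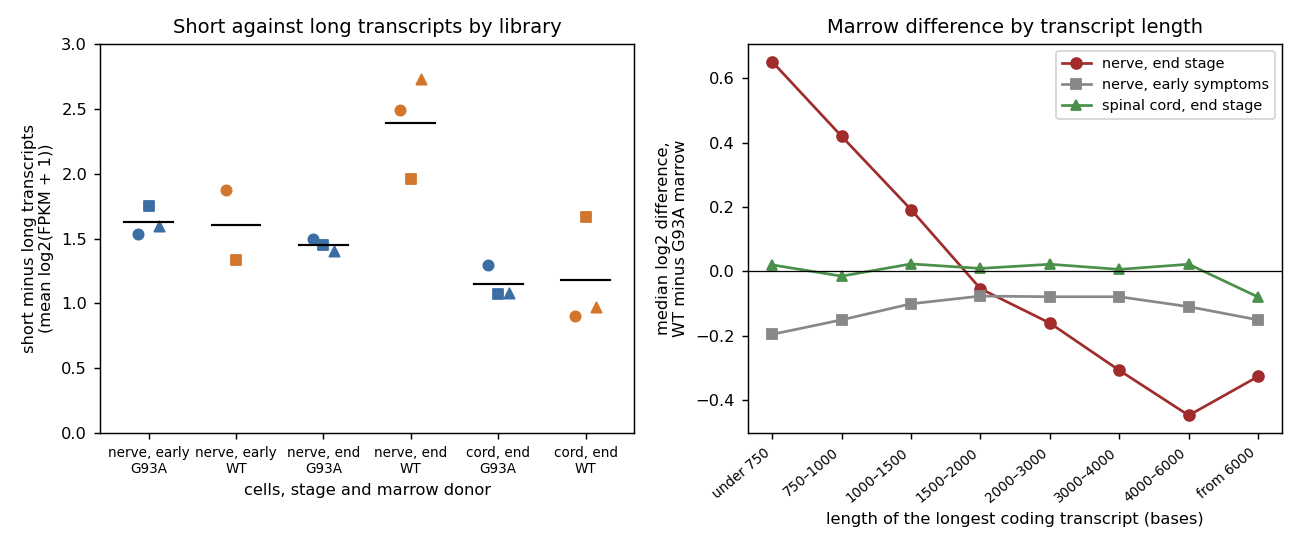
Left, mean log2(FPKM + 1) of transcripts under 1000 bases minus that of transcripts over 4000 bases in each library (symbols are mice, lines group means). Right, median log2 difference, WT minus G93A marrow, by length of the longest coding transcript. The end-stage nerve line runs from 0.65 under 750 bases to -0.45 at 4000 to 6000 bases, and the lines of early nerve and end-stage cord stay between -0.20 and 0.02.

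The third question was whether the difference between marrow donors was itself different from that in early symptoms or in spinal cord. In early symptoms the mitochondrial share was 1.21%, 1.25% and 0.287% with G93A marrow and 1.29% and 0.435% with WT marrow, and in end-stage microglia 2.41%, 0.731% and 2.61% against 2.71%, 2.78% and 1.97%. Both pairs of groups overlap. The end-stage nerve difference exceeded the early one by 5.05 points (permutation test within stages, p = 0.05) and the microglial one by 4.43 points (p = 0.1). Marrow labels were permuted in both parts of each comparison, so the null was no marrow difference in either part. A small p here therefore cannot show that the differences themselves differ. Over the 6 such tests of mitochondrial share, unnamed share and the short-to-long contrast, the Benjamini-Hochberg adjusted permutation p was 0.1 in each.

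**Figure D5:**
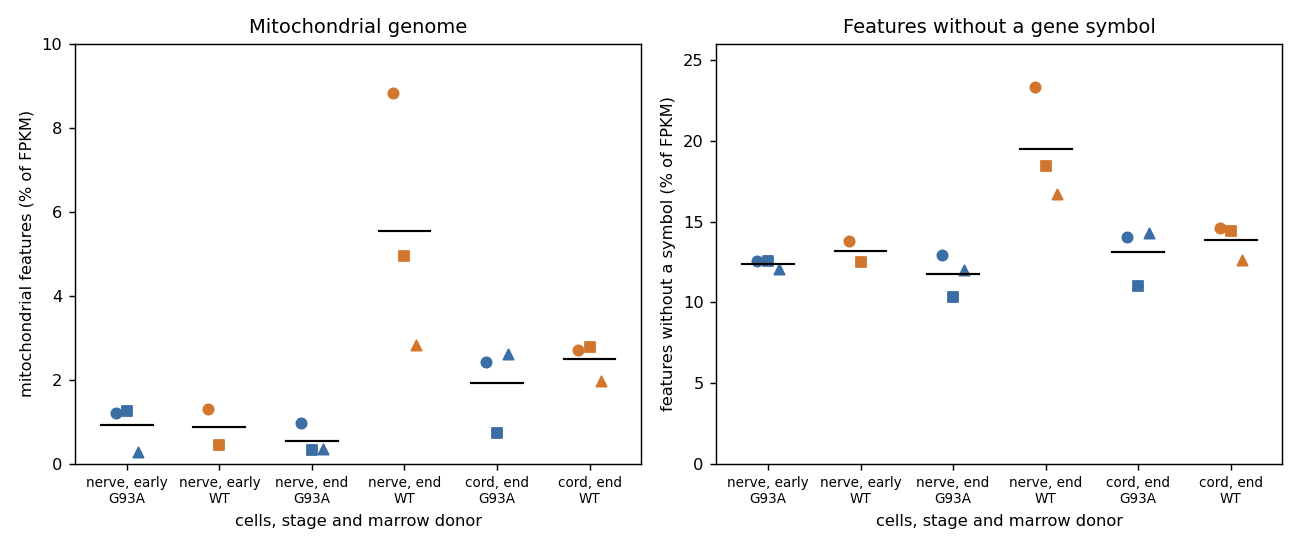
Percent of each library's FPKM in mitochondrial features (left) and in all features without a symbol (right). Symbols are single mice (blue G93A marrow, orange WT marrow) and lines are group means. End-stage nerve libraries with WT marrow lie at 2.84% to 8.84% and 16.7% to 23.3%, above the G93A marrow libraries of the same stage.

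Gene by gene, limma called 0 of 10299 genes (0%) for a difference between stages, with 912 (8.86%) at an unadjusted p under 0.05. The smallest p-values were those of Mrpl1, a mitochondrial ribosome protein, Nop10, a part of the box H/ACA particles that modify ribosomal RNA, and Dhx16, a splicing helicase. In early symptoms alone, 0 genes were called and 245 (2.38%) had an unadjusted p under 0.05. Retnla differed by -1.60 and Pf4 by -3.11 in early symptoms, both opposite in sign to end stage, with 2 mice for WT marrow. Between nerve and cord at end stage, 0 of 10873 genes (0%) were called and 940 (8.65%) had an unadjusted p under 0.05. Slc22a4, Nrg4 and Chit1 had the smallest p-values there. Without WT marrow replicate 2, 152 of 10896 genes (1.40%) were called. This test compares marrow differences, not levels, and in 31 of them the WT minus G93A marrow difference was more positive in nerve than in cord. The most positive were those of Retnla, Ctla2a, Pltp, Upb1 and Clec4b1, and the most negative those of Rhd, Rara, Gpc1, Hip1r and Agap1. Ctla2a, for one, was at 0.08, 2.08 and 0.61 FPKM in nerve with G93A marrow and 27.78, 1.29 and 80.91 with WT marrow, beside 33.78, 20.12 and 34.07 against 34.35, 34.99 and 17.68 FPKM in microglia. Retnla was at 0.10, 0.39 and 3.54 FPKM in microglia with G93A marrow and 0.08, 10.83 and 37.23 FPKM in microglia with WT marrow.

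A few genes kept the marrow groups of the nerve apart at both stages, across all 11 libraries. There were 30 higher (0.291%) and 62 lower (0.602%) with WT marrow, and the genes named next were chosen after their values were seen. How many genes would separate by chance in groups this small was not tested. P4ha2, a subunit of the collagen prolyl hydroxylase, was at 0, 0 and 0 FPKM in early symptoms with G93A marrow, 5.23 and 1.26 with WT marrow, then 0.01, 0 and 0 at end stage with G93A marrow and 0.04, 5.93 and 10.06 with WT marrow. Etnk1, an ethanolamine kinase, was at 7.25, 18.47 and 6.33 against 0.06 and 2.45 FPKM in early symptoms, and 4.18, 4.48 and 4.67 against 0, 1.21 and 1.01 FPKM at end stage. Pak4 and Gramd4 were lower at both stages in the same way. These genes are at low levels, and none was called.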

How the data were processed

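The authors deposited FPKM values of the 23 grafted libraries in 1 table, per the file headers, with commas as decimal marks. The submitters' processing notes list mm10 as the genome build, and among tools DESeq2, Picard, FastQC, SAMtools and R 3.2.5, without saying what each did. The aligner and any use of strand in counting were not given in the sources used here. Of 58976 features, 23297 carry a symbol.

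Symbols with a mean of at least 1 FPKM were tested with limma 3.58.1 (R 4.3.3, eBayes with trend) on log2(FPKM + 1), which understates the change of low genes. The fit held all 11 grafted nerve libraries (7 residual degrees of freedom), or the 12 end-stage grafted libraries (8) for nerve against cord. A call is an adjusted p (Benjamini-Hochberg) under 0.05. Shares were compared with exact permutation tests. No symbol starts with mt-, so mitochondrial features were taken by chromosome. Transcript length, GC content and annotation came from GENCODE vM21, with a length for 92.7% of the genes tested.

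Genes were named by a rule: the 12 largest differences in each direction among genes whose groups do not overlap and whose higher group averages at least 5 FPKM, then in each of 37 lists the 3 largest called members, or with none called the 3 most abundant and any whose groups do not overlap, the 3 to 5 leading genes of each interaction, and 7 fixed genes. The text gives a part of these, and some items are not reported here. The list of mitochondrially encoded proteins had no member with a symbol. Members and lists were chosen with earlier results of these data known. Of the list entries, 28 had no feature of that symbol alone and 76 were under 1 FPKM. The method was tested on simulated data, with the same spread of a gene in all libraries and with raised levels. That run therefore did not cover unequal libraries or near-zero values like those of WT marrow replicate 1. Each library is 1 mouse. Alternatives were other pseudocounts, filters, scalings, library weights, a neutrophil term, a replicate block, each library left out and, chosen after seeing the data, length and GC trends removed and WT marrow replicates 1 and 3 both left out. The labels do not say that replicate numbers pair mice, so numbers were not taken as pairs.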

Additional observations from a re-analysis of the deposited data

Results flagged for a closer look

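Features without a symbol were outside the gene test. Among them, 4 were above every G93A marrow library in all 3 WT marrow libraries of end-stage nerve, with a log2 difference over 4, and are given as values. The feature at 1:24615710-24615972 differed by 4.82, at 103.86, 15.63 and 28.28 FPKM with G93A marrow and 1899, 1075 and 564 FPKM with WT marrow. It lies near the nuclear copy of mitochondrial DNA described above. Short features at 6:47788071-47788098 and 6:47788150-47788180 lie inside Rny1, which gives a small cytoplasmic Y RNA. They differed by 4.24 and 4.22. The first was at 0.04, 0.35 and 0 against 22.96, 12.24 and 28.72 FPKM and the second at 4.02, 1.33 and 0 against 50.63, 27.23 and 50.78 FPKM. The feature at 19:5443356-5443440 differed by 4.04, at 0, 0 and 0.98 against 78.93, 9.46 and 9.48 FPKM. These features were singled out by size among the higher ones after their values were seen, and lower ones are not given.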

How the results depend on the processing

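With all 6 libraries, 0 genes were called for the marrow difference at end stage. Leaving out 1 library at a time gave 0 to 278 calls, the 278 without WT marrow replicate 2. Testing features without a symbol as well gave 1 call, a feature without a symbol. With the replicate number as a block 1 gene was called, Retnla (8.36, limma adjusted p = 0.00054). The difference between stages had 0 calls and 1 with the block (Retnla, 13.29). Same-numbered end-stage nerve libraries deviated from their group means with correlations of -0.105, -0.026 and -0.117. With 3 libraries in a group such values cannot exclude pairing. The labels do not say that numbers pair mice, so the numbers were not taken as pairs. For nerve against cord, leaving out 1 library gave 0 to 152 calls, the 152 without WT marrow replicate 2, and leaving out WT marrow replicates 1 and 3 together gave 2, the Y-linked Eif2s3y and Ddx3y. The counts of genes without overlap ran from 520 (length and GC trends removed) to 2958 higher and from 1010 (mean of at least 5 FPKM) to 3183 lower, both highest counts coming without WT marrow replicates 1 and 3. Without replicate 1 there were 1691 higher, and without replicate 2, 1700 higher and 2550 lower. With no filter on low values there were 1926 higher. Median-ratio scaling moved the median of all genes from -0.15 to -0.05. The differences in mitochondrial and unnamed share kept their direction under every alternative run. As the groups do not overlap in either share, leaving out a library could not change the direction. The read depth is unknown, so no counting error can be given.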
